A study of Drosophila melanogaster with 2 samples.

Results

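Basement membranes are thin sheets of extracellular matrix that underlie epithelia and wrap muscles, nerves and fat tissue. They are built on networks of collagen IV and of laminin, and in the fly gut such a sheet lies between the epithelium and its visceral muscle. Integrins, the cell surface receptors for many of these proteins, link the matrix to the cytoskeleton. Described here are 7 genes of the Drosophila melanogaster adult hindgut, of 23932 features in the authors' deposited table. They are the collagen IV genes vkg and Col4a1, the laminin genes LanB1 and wb, the cross-linking peroxidase gene Pxn, the ADAMTS-like gene nolo and Tig, which encodes the matrix protein tiggrin. They were taken by symbol through their feature identifiers, and all 7 passed the filter on low means.

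Hindguts were compared at 2 ages, with the cells labelled as adult ileal cells, the ileum being the tubular main part of the hindgut. Young guts were dissected right after the adults left the pupal case, and mature guts after the adults had spent 4 days at 18 °C. Animals of both ages carried bynGal4, a driver named for the hindgut gene brachyenteron, and were reared at 25 °C; 100 to 150 guts were dissected per condition, with 3 replicates each. Age thus changed together with the temperature during adult life, and their effects cannot be told apart.

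The deposited values are a mean over the 6 libraries and 1 estimated fold change per feature, so no value per library is given for any gene; where levels at each age appear they were computed from that mean and fold change and carry no error. Summed over features, the means of the authors' deposited table came to 2.94e+07 normalized counts. Gene names are used here only along the first 22.2 megabases of arm 2L and the first 5.15 megabases of arm 3L (Ensembl annotation of BDGP6), and all 7 genes lie in these name-checked stretches. There the 19 tested genes of cytoplasmic ribosomal proteins, which every cell needs, had means of at least 28246 in the authors' deposited table. The 50 genes of such proteins elsewhere, tested or not, had a median of 1.08, and 34 of them lay below 10. Only the first group was limited to tested genes. Names elsewhere were not relied on. The stretches were chosen because names fit levels there, so high levels of such genes inside them restate that choice and do not check it. Examples near the genes described were picked after their values were seen. RpL8, a ribosomal protein gene close to Pxn, had a mean in the authors' deposited table of 90239. In the authors' deposited table the elongation factor gene eEF2, close to nolo, had a mean of 225211. For the ribosome-associated Rack1, close to LanB1, the authors' deposited table gave 81551. Of the 13 hindgut marker genes listed, 6 lie in the stretches and none of these was at 0; the authors' deposited table gave the antiporter gene Nha1 a mean of 165721. A positive log2 fold change is higher in young guts, and a call is an adjusted p under 0.05 of the authors' DESeq2 Wald test.

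Which matrix genes differ between young and mature hindguts is the question this comparison answers. Of the 7 genes, 6 were higher in young guts and Tig was higher in mature guts. The changes ran from 1.25-fold for Pxn to 13.2-fold for nolo toward young, and Tig changed 15.3-fold toward mature, by the authors' deposited table. Over all 2604 tested features of the stretches, 20.7% were called higher in young and 19.7% higher in mature; in either direction 40.3% were called there. Over the 10458 tested features of the whole table the shares were 16.3% for young, 15.4% for mature and 31.7% in either direction. The median log2 fold change of the 7 was 0.94, beside -0.0070 over all tested features of the stretches. The 7 genes were picked with earlier results of these data known, so their count and median are a description. Against a fold of 2 in place of no change, the test kept nolo and Tig and ended the other 5 calls; it called 2.04% of the features of the stretches higher in young and 2.11% higher in mature.

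Levels per length put these genes in a wide range. Tig had the highest deposited mean per kilobase of exon, 11554 normalized counts, followed by LanB1 at 2950, Col4a1 at 1357, vkg at 916 and Pxn at 512. The lowest were nolo at 147 and wb at 112 normalized counts per kilobase. The order differed between the ages. In young guts LanB1 was highest, with a computed level of 3789 per kilobase, and Tig, at 1422, lay between Col4a1 (1901) and vkg (1313). In mature guts Tig was at a computed level of 21685 per kilobase and LanB1 at 2110. Set against the other 6 genes together, the computed level of Tig per kilobase was 0.178 times their sum in young guts and 5.43 times their sum in mature guts.

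**Figure D1:**
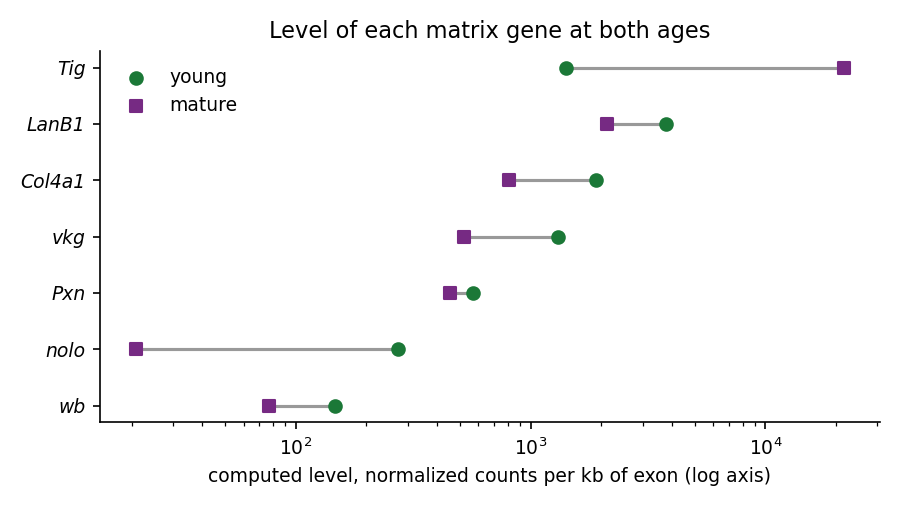
Computed level of each of the 7 matrix genes in young guts (circles) and mature guts (squares), in normalized counts per kilobase of exon on a log axis; a line joins the levels of a gene, and no error is shown because no value per library was given. The mature level lies left of the young level for 6 genes, and Tig crosses from 1422 in young to 21685 in mature.

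Transcripts of both collagen IV chains were more abundant in young guts. In the fly, vkg (viking, FBgn0016075, 2L, 5012144 to 5028191, minus strand) and Col4a1 (FBgn0000299, 2L, 5029609 to 5037279, plus strand) encode the alpha chains that wind into the collagen IV trimer, a main component of basement membranes. They stand head to head, with 1417 bases between their starts in the Ensembl annotation. The deposited mean of vkg was 5959 normalized counts, with a computed level of 8541 in young and 3377 in mature guts. That of Col4a1 was 8365, with computed levels of 11722 and 5007. The estimated change of each exceeded 2-fold. The authors' deposited table put vkg at 2.53-fold (log2 1.34 ± 0.13 SE, adjusted p = 2.74e-22). For Col4a1 the authors' deposited table gave 2.34-fold (log2 1.23 ± 0.14 SE, adjusted p = 5.26e-16). The estimates differ by 0.11 on the log2 scale, less than the standard error of either gene, and their 95% intervals, 1.08 to 1.60 and 0.94 to 1.51, overlap. Per kilobase of exon, the computed level of Col4a1 was 1.45 times that of vkg in young and 1.56 times in mature guts.

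Changes of the tested features flanking the pair were smaller than those of the pair. Of the 5 on either side of vkg and of Col4a1, 9 besides the other collagen gene in each case, none was called higher in young. Over all tested features of the stretches that share was 20.7%, and 9 features are too few to set a count of none apart from it. By the authors' deposited table, Rtnl1, which encodes a reticulon of the endoplasmic reticulum, had a log2 fold change of -0.46 and CG8891 one of -0.43, both called higher in mature. The nearest tested gene on the vkg side, SelT, had a log2 fold change in the authors' deposited table of 0.21 (adjusted p = 0.0652), and the nearest on the Col4a1 side, CG31650, one of -0.031 (adjusted p = 0.902). The largest absolute log2 fold change was 0.46 among the 9 neighbours of vkg and 0.61 among those of Col4a1, the latter that of CG14036, which was not called.

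The laminin genes were also higher in young guts, by somewhat less than 2-fold. Laminins are trimers of an alpha, a beta and a gamma chain; LanB1 (FBgn0261800; 2L, 7811438 to 7820771, plus strand) encodes the beta chain and wb (wing blister, FBgn0261563; 2L, 14263027 to 14328262, plus strand) an alpha chain. LanB1 had a deposited mean of 18529 normalized counts, with computed levels of 23805 in young and 13254 in mature guts. For wb the mean was 1558, with computed levels of 2048 and 1067. Per kilobase of exon the mean of LanB1 was 26.3 times that of wb at the transcript level. The other laminin genes listed, LanA and LanB2, lie outside the stretches and were not analysed here. The authors' deposited table put LanB1 at 1.80-fold toward young (log2 0.84 ± 0.07 SE, adjusted p = 5.96e-34). In the authors' deposited table wb stood at 1.92-fold in the same direction (log2 0.94 ± 0.11 SE, adjusted p = 4.91e-17). Their estimates differ by 0.096 on the log2 scale, or 0.754 of the combined standard error. That combined error treats genes as independent although they were measured in the same libraries.

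Between the collagen and the laminin pair the order was less clear. Col4a1 exceeded wb by 0.29 on the log2 scale, 1.59 combined standard errors, and vkg exceeded LanB1 by 0.49, or 3.31 combined standard errors. The 95% intervals of wb (0.73 to 1.15) and Col4a1 overlap, whereas that of LanB1 (0.71 to 0.98) overlaps that of Col4a1 and not that of vkg.

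Pxn changed least. It encodes peroxidasin (FBgn0011828; 3L, 2601455 to 2630064, minus strand), the matrix peroxidase that cross-links collagen IV. The deposited mean was 3049 normalized counts, and the computed levels were 3383 in young and 2716 in mature guts. By the authors' deposited table it was 1.25-fold higher in young guts (log2 0.32 ± 0.11 SE, adjusted p = 0.0201), with a 95% interval of 0.093 to 0.54. Its change lay 0.53 below that of LanB1 on the log2 scale, 3.98 combined standard errors, and 0.91 below that of Col4a1, 4.94 combined standard errors. The call is lost when all fold changes are recentred on the 19 cytoplasmic ribosomal protein genes of the stretches, whose median was 0.17 on the log2 scale; the value is then 0.14 (adjusted p = 0.353), with 15.8% of features called higher in young and 31% higher in mature. It is also lost at an adjusted p under 0.01, which 17.2% of features passed toward young. Recentring left the direction of all 7 genes as it was. The Pxn exons share 233 bases, 3.91% of their length, with exons of CG16986 and of a long noncoding RNA gene. Reads there may not have been counted for it: all 53 protein-coding genes of the stretches whose exons equal those of another gene were at a mean of 0, against 13.3% of the other 3198.

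Among the genes higher in young guts, nolo stood apart in size and in error. It encodes an extracellular ADAMTS-like protein, a relative of the ADAMTS matrix proteases that lacks the protease domain (no long nerve cord, FBgn0051619; 2L, 21684106 to 21729051, plus strand). The deposited mean was 859 normalized counts, with computed levels of 1596 in young and 121 in mature guts. The authors' deposited table put it at 13.2-fold toward young (log2 3.72 ± 0.39 SE, adjusted p = 4.27e-20), the fifth largest rise toward young in the stretches, and it stands on the authors' list of 132 young features. The 95% interval was 2.95 to 4.48 on the log2 scale. Standard errors in the table reach a ceiling of 0.53 and fall again at low means, which is the shape that a zero-centred prior on the fold change gives. If such a prior was used, undoing it moves nolo to 21.5-fold (log2 4.43), with a computed mature level of 76.4, and changes the log2 value of each other member by less than 2%.

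Tested neighbours of nolo showed smaller changes, the largest absolute log2 fold change being 0.63. Of 10, 3 were called higher in mature and none higher in young, beside 19.7% and 20.7% of all tested features of the stretches. So few features cannot set these counts apart from those shares. The long introns of nolo hold 26 annotated transposable element copies, none sharing exon bases with it. Of these, 12 were at a mean of 0 and 1 was tested, a Burdock copy to which the authors' deposited table gave a mean of 225 and a log2 fold change of 0.053 (adjusted p = 0.901). The other copies had means of at most 5.36.

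Tig, by contrast, was far higher in mature guts. Tiggrin (FBgn0011722; 2L, 6415179 to 6423310, minus strand) is a large matrix protein bound by the PS2 integrin and is known from muscle attachment sites. The deposited mean was 81083 normalized counts, with computed levels of 9978 in young and 152188 in mature guts. The authors' deposited table put it at 15.3-fold toward mature (log2 -3.93 ± 0.11 SE, adjusted p = 1.83e-299), and its 95% interval was -4.14 to -3.72. It had the smallest p of the 2604 tested features, the second largest change toward mature and the 23rd highest mean, and it is among the 91 features the authors listed as mature. At the computed mature level, Tig was 10.3 times LanB1 per kilobase; at the young level it was 0.375 times.

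Several genes beside Tig were also higher in mature guts, though by less. Of its 10 tested neighbours, 4 were called higher in mature and 1 higher in young, beside 19.7% and 20.7% of all tested features of the stretches. So few features cannot set these counts apart from those shares. Fic, the nearest upstream, encodes an enzyme that modifies the chaperone BiP; its log2 fold change in the authors' deposited table was -0.94, and that of Rchy1 was -1.58. For CG13982, which shares 157 exon bases with Tig on the opposite strand, the authors' deposited table gave a mean of 187 and a log2 fold change of -0.16 (adjusted p = 0.735). Acox3 on the upstream side was called higher in young, at 0.74 by the authors' deposited table. Over the neighbours of all 7 genes, 25 of 60 distinct features were called, 41.7%, beside 40.3% of all tested features of the stretches in either direction.

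**Figure D2:**
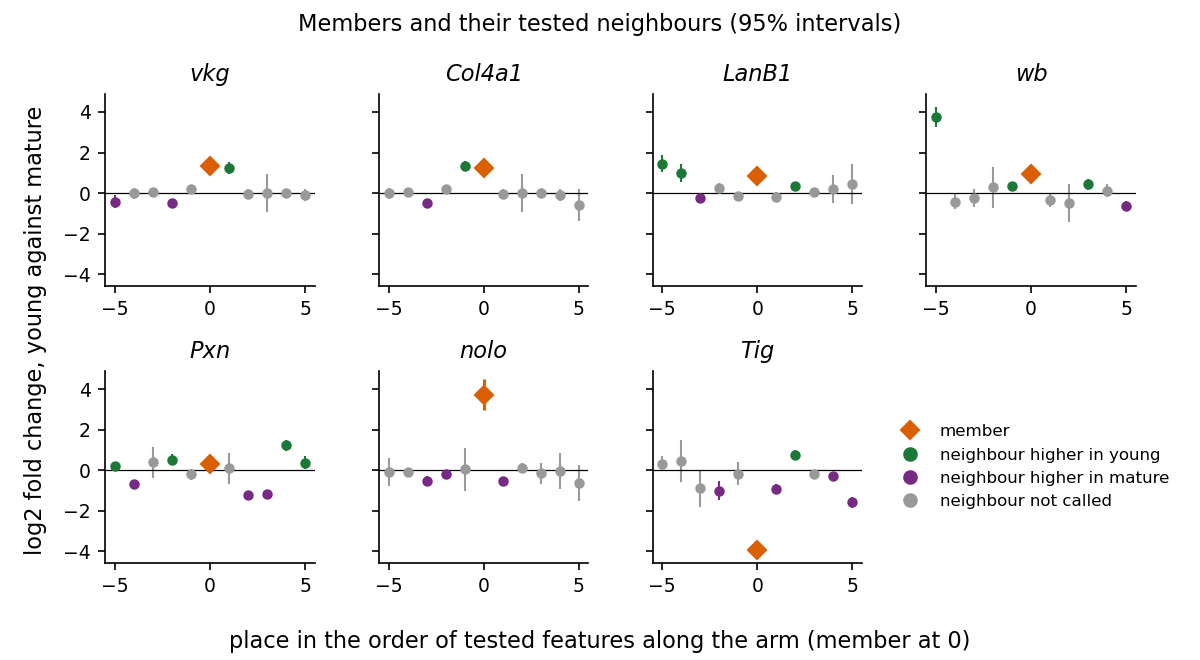
Log2 fold change of each of the 7 genes (diamonds at place 0) and of the 5 tested features on either side in their order along the arm, transposable elements left out, with 95% intervals. Colours show features called higher in young, higher in mature or not called; vkg and Col4a1 appear as each other's neighbour, and nolo and Tig stand away from all features beside them.

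The precision of the estimates differed among the members. The standard error of Col4a1 exceeded that of 97.1% of the 344 tested features with a mean within 2-fold of its own. The figure was 96.7% for nolo, 94.1% for vkg and 94.1% for Tig, over 578, 456 and only 51 such peers. Peers were matched on the mean over both ages, which for nolo and Tig averages very different computed levels. LanB1 and wb were at the other end, above 3.92% and 18.7% of their peers, and Pxn lay at 64.6%. LanB1, at 0.07, had the smallest standard error of the 7.

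**Figure D3:**
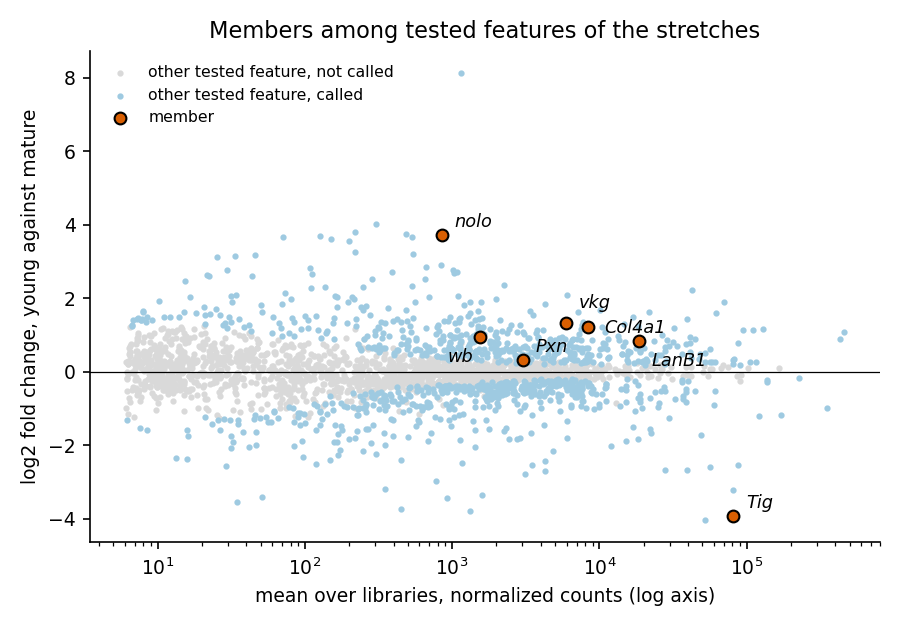
Log2 fold change against the mean over libraries (log axis, normalized counts) for the 2604 tested features of the name-checked stretches, with the 7 genes marked and named. Features called at an adjusted p under 0.05 are in blue and the rest in grey; Tig lies at the lower right edge at a mean of 81083, and nolo near the upper edge at a mean of 859.

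Among features with a mean of at least 10000, few came close to Tig. By the authors' deposited table, the nearest in log2 fold change over the 2 conditions was CG7296 (-4.04), 0.11 away, followed by CG3604 (-3.21), 0.72 away, and CG16704 (-2.69), 1.24 away. Nearest to vkg in the authors' deposited table were CG31808 (1.30), CG13907 (1.43) and Rh50 (1.24), and nearest to Col4a1 were Rh50, CG15818 (1.21) and muc (1.18), an enzyme gene of the pyruvate dehydrogenase complex.

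Other matrix protein genes were mixed. The list of basement membrane and matrix proteins named 24 genes, of which 11 lay in the stretches; these were the 7 members and 4 more. Toward young 7 of the 11 were called, toward mature 2, and 2 were not called. Of the 4 that are not members, 1 was called toward young and 1 toward mature. The shares over all tested features of the stretches were 20.7% and 19.7%. On recentring, 6 of the 11 were higher in young, without Pxn, and 3 in mature, with loh. The median log2 fold change of the 11, members included, was 0.84. Glt, which encodes the basement membrane glycoprotein glutactin, stood at 2.23-fold toward young in the authors' deposited table (log2 1.15 ± 0.18 SE, adjusted p = 1.80e-09). Tsp, the thrombospondin gene, whose product is an integrin ligand at muscle and tendon junctions, stood at 1.84-fold toward mature in the authors' deposited table (log2 -0.88 ± 0.22 SE, adjusted p = 0.000530). For the ADAMTS-like gene loh, known from the heart matrix, the authors' deposited table gave a log2 fold change of -0.35 (adjusted p = 0.217), against the 3.72 of its relative nolo; recentred, loh was at -0.52 (adjusted p = 0.0386) and called higher in mature. The giant cuticle-anchoring protein gene dpy was listed at a mean of 67433 by the authors' deposited table, with a log2 fold change of 0.11 (adjusted p = 0.415).

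On the cell side, the few genes with a call all had it toward young. Most names on the receptor, adhesion and protease lists lay outside the stretches, so the genes left are too few to show a trend. For scale, 20.7% of all tested features there were called toward young and 19.7% toward mature. Of 16 receptor genes listed, 4 lay in the stretches; toward young 2 were called and toward mature none. By the authors' deposited table these were the receptor phosphatase gene Lar (log2 0.90, adjusted p = 0.000307) and the sarcoglycan gene Scgalpha (log2 0.64, adjusted p = 0.0116); the Scgalpha call was lost on recentring. The integrin beta subunit gene Itgbn had a log2 fold change in the authors' deposited table of 0.13 (adjusted p = 0.607), and Ddr, a discoidin domain receptor gene with a mean of 16.0, one of 0.82 (adjusted p = 0.235). Of 17 integrin adhesion genes, the 2 in the stretches were both higher in young. The authors' deposited table gave Pax, the adaptor paxillin, a log2 fold change of 0.88 ± 0.08 SE (adjusted p = 5.20e-28) and ics, whose product binds the adhesion protein PINCH, one of 0.93 ± 0.09 SE (adjusted p = 9.90e-23). The protease list left 1 gene in the stretches, the membrane metalloprotease gene kuz; its log2 fold change in the authors' deposited table was 0.40 (adjusted p = 0.000466), also no longer called on recentring.

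None of the 3 listed genes for exporting collagen that lay in the stretches was called, beside 40.3% of all tested features there in either direction. So few genes cannot show a trend. Tango1 encodes the protein that loads collagen at exit sites of the endoplasmic reticulum; the authors' deposited table gave it a mean of 6930 and a log2 fold change of 0.085 (adjusted p = 0.501). The coat protein gene Sec24CD had a log2 fold change in the authors' deposited table of 0.20 (adjusted p = 0.0807), and strat, a gene for a regulator of Rab proteins in matrix secretion, one of 0.30 (adjusted p = 0.130). These 3, of 21 genes listed, were the ones in the stretches; the collagen-modifying enzymes on the list lie outside them and were not analysed here.

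**Figure D4:**
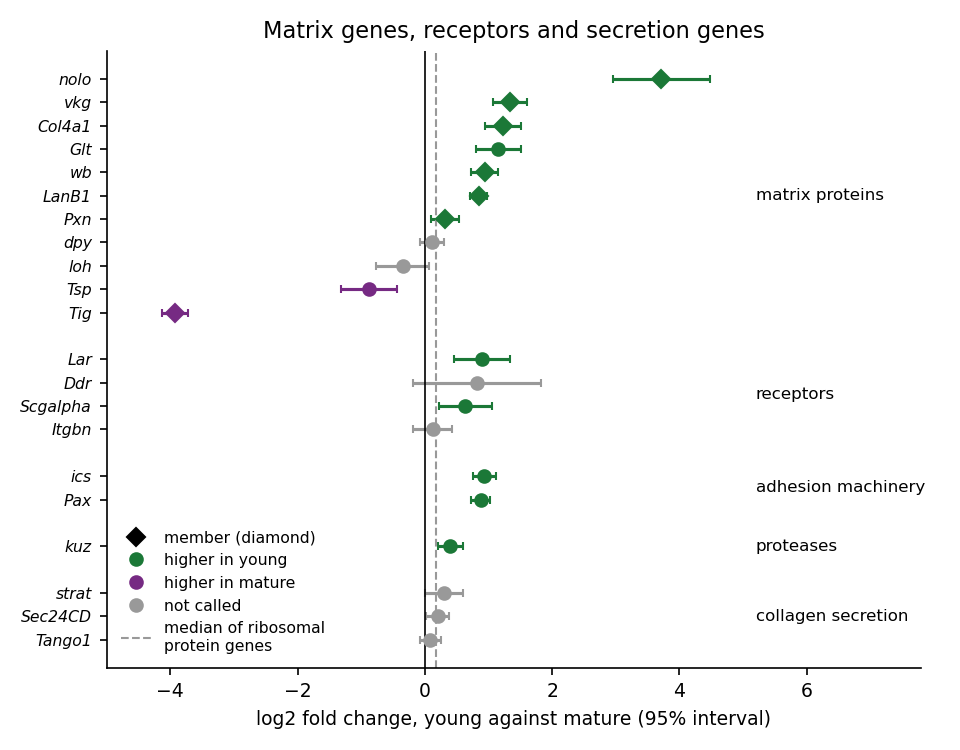
Log2 fold change with 95% interval of every tested gene of the matrix protein, receptor, adhesion, protease and collagen secretion lists in the name-checked stretches, members as diamonds; the dashed line marks the median of the ribosomal protein genes, 0.17. Tig and Tsp lie below 0 and were called higher in mature, and the 3 secretion genes lie near the dashed line and were not called.

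Markers of cell types that make or carry basement membrane also moved. In bulk tissue, fewer cells of a type and less RNA per cell cannot be told apart. Of 17 muscle genes listed, 3 lay in the stretches. Mhc, the gene of the myosin heavy chain, had a log2 fold change of 0.90 in the authors' deposited table, the titin-like sls one of 0.63 and the giant nesprin gene Msp300 one of -0.21, each of them called. Their summed computed level was 752030 in young and 490250 in mature guts, most of it from Mhc (557266 and 299283). Mhc and sls changed in the direction of the laminin and collagen genes, and Msp300 in that of Tig. Collagen IV is made largely by fat body and blood cells (hemocytes) in fly larvae. Of 14 hemocyte genes, 8 lay in the stretches and 7 were tested; 6 were higher in young, Pxn itself among them, and crq was higher in mature, beside 20.7% and 19.7% of all tested features of the stretches. The authors' deposited table gave NimC4, a receptor gene for engulfing dying cells, a mean of 488 and a log2 fold change of 3.75 (adjusted p = 1.66e-45). Log2 fold changes of 1.18 for NimB4, 1.20 for NimB5, 1.43 for Sr-CI and 1.54 for NimC1 stood in the authors' deposited table at means of 69.0, 104.9, 35.7 and 26.6. Without Pxn, the summed computed level of the hemocyte genes was 8371 in young and 10791 in mature guts, most of it from crq, whose mean was 8852 and log2 fold change -0.57 in the authors' deposited table. Without crq as well, a subset not planned beforehand, the summed computed level of the other 6 was 1247 in young and 210.2 in mature guts. These 6 include He, which had no adjusted p. Most of the sum in young guts came from NimC4, at a computed level of 908.8 in young and 67.7 in mature. Of 12 fat body genes, 4 lay in the stretches. By the authors' deposited table, the larval storage protein genes Lsp1beta (log2 2.84, mean 109) and Lsp1gamma (1.83, mean 69.8) and Fbp2 (1.34, mean 83.8) were higher in young, and the fatty acid synthase gene FASN1 (-0.52, mean 61173) was higher in mature. The summed computed level of those 4 was 50717 in young and 72153 in mature guts, almost all of it from FASN1 (50297 and 72049). The other 3 went the opposite way. Among the 6 hindgut markers, the authors' deposited table gave log2 fold changes of 0.96 for drm, 0.81 for cad and 0.69 for wg, called higher in young, and of -0.69 for dpp and -0.29 for bowl, called higher in mature; Nha1 (0.11) was not called. Of the trachea, midgut and neuron markers in the stretches with an adjusted p, the tracheal trh and the midgut LManII were called higher in young, the neuronal nSyb and the midgut Jon25Bi higher in mature, and Syt1, LManI and Jon25Bii were not called. On recentring, Fbp2 and trh lost their calls. No marker in the stretches was at 0, and the part of muscle, hemocytes or fat body in the changes of the 7 genes was not tested.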

How the data were processed

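Total RNA from hindguts was extracted with Trizol and sequenced as read pairs on a NovaSeq, per the labels' protocols. The submitters' processing notes name HISAT2, Trim Galore, DESeq2 and the build BDGP6; which program counted reads, and with what strand setting, is not given in the sources used here. The authors' deposited mean is a signal, normalized counts averaged over the libraries. The fold change and its standard error deposited by the authors were read as log2 values, young against mature. The deposited Wald score is their ratio. The p-value and adjusted p-value deposited by the authors come from the DESeq2 Wald test; the Benjamini-Hochberg adjustment over 10458 features was recomputed and matched. Depth per library was not analysed here, and nothing in the labels says whether replicates were separate cultures of flies, so the spread behind each p-value may be technical only.

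Symbols, positions (1-based), exon lengths and overlaps came from the Ensembl release 115 annotation of BDGP6, which held 23851 of the 23932 features. The planned edgeR test needs counts per library, which were not used here. Levels at each age assume equal group sizes; intervals are the estimate and its standard error on a normal scale. The members, lists and name-checked stretches were chosen with earlier results of these data known. Genes named are the members, the list genes with an adjusted p in the stretches, and the 3 features nearest to vkg, Col4a1 and Tig in log2 fold change; neighbours and transposable elements were chosen after their values were seen. List names were matched exactly or by letter case; 5 names had no match. Values were computed in Python 3.11.15 (scipy 1.17.1, numpy 2.4.6, pandas 2.3.3) and drawn with matplotlib 3.10.9.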

Additional observations from a re-analysis of the deposited data

How the results depend on the processing

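No paired analysis was possible because the files give 1 estimate per feature and nothing per library, and for the same reason leaving out each replicate was not run. Of 19 results (7 members and counts in each direction for the members and 5 lists), all 19 kept their direction and side of the threshold with no low-mean filter, with adjustment over the name-checked stretches alone, with means of at least 100 only and, an alternative chosen after seeing the data, with a zero-centred prior undone. At an adjusted p under 0.01, Pxn (log2 0.32) was no longer called and 1 receptor gene remained higher in young. Recentred on the ribosomal protein genes, Pxn, at 0.14, lost its call, with 6 matrix, 1 receptor and 0 protease genes higher in young and 3 matrix genes, loh among them, higher in mature. A Wald test against a fold of 2, which asks for more than a difference, kept nolo and Tig. It ended the calls of vkg (log2 1.34, adjusted p = 0.336), Col4a1 (1.23), LanB1 (0.84), wb (0.94) and Pxn (0.32). Under it 1 member, 1 matrix gene, 0 receptor, 0 adhesion and 0 protease genes were higher in young and 1 matrix gene was higher in mature. What read depth limits was not analysed here, since no depth per library was given.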

Other observations

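Features around the member genes gave a few values that belong in no comparison above. CG32971 and 3 long noncoding RNA genes inside the introns of wb had means of at most 2.40 by the authors' deposited table. Near LanB1, the authors' deposited table gave LKRSDH, a lysine degradation gene, a log2 fold change of 0.99 and CG7149 one of 1.45, both called higher in young, while Herp, between them and LanB1, had one of -0.23 and was called higher in mature. Close to Pxn, the authors' deposited table listed CG14949 and CG1143 at means of 121132 and 170874 with log2 fold changes of -1.22 and -1.18, and CG1246, the next tested gene, at 1.24.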
